A study of Mus musculus with 3 samples.

Results

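The Ms4a genes encode small membrane proteins, relatives of CD20, and 7 of them were followed here through cultures of mouse naive CD4+ T cells. The 7 genes are Ms4a1, Ms4a4b, Ms4a4c, Ms4a4d, Ms4a6b, Ms4a6c and Ms4a6d, out of 19935 genes with a probe set annotated to exactly 1 gene symbol. They were taken by family name, and the family was selected on its differences in intensity between these same arrays, so those differences are given as a description. Each gene had 1 probe set. The naive CD4+ T cells, helper lymphocytes that have not yet met antigen, came from wild type C57BL/6 mice, 8 weeks old, and all 3 cultures shared this source. One culture received medium with vehicle, another IL-21, and the other IL-6 together with TGFb1, the pair commonly used to drive naive T cells towards the IL-17-producing Th17 fate. Each culture was measured on 1 array, and the labels give no dose, no time in culture, no number of mice and no information on T cell receptor stimulation.

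Ms4a proteins cross the cell membrane several times and take part in signalling complexes at the surface of blood cells. The family is best known from Ms4a1, which encodes CD20, the B cell surface protein linked to calcium entry and targeted by therapeutic antibodies. Ms4a2 encodes the beta chain of the high affinity IgE receptor of mast cells. In T cells the best described member is MS4A4B, a protein of naive, Th1 and regulatory T cells that associates with the costimulatory receptor GITR and slows T cell proliferation. Ms4a6c and Ms4a6d are known mostly from monocytes and macrophages.

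Ms4a4b and Ms4a4c were 3.58-fold and 3.73-fold lower in the IL-6 and TGFb1 culture than in medium, and in the IL-21 culture they were close to medium. Ms4a6b, in the same gene cluster, did not share this pattern: it was 1.40-fold higher in the IL-21 culture and 1.09-fold lower with IL-6 and TGFb1. Ms4a6d was 1.98-fold higher with IL-21, from a dim signal. Ms4a6c was 1.33-fold lower with IL-6 and TGFb1. The signals of Ms4a1 and Ms4a4d were dim on every array. No difference has a replicate error, because there was 1 array per culture, and no test was possible.

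Values are probe set intensities on a linear scale, and a difference between 2 arrays is that of their log2(intensity + 1). A gene was compared if its highest intensity on the 3 arrays reached 187, the median of all values, which kept 11003 genes. Of the 7 Ms4a genes, 5 were compared. Ms4a4b and Ms4a6b were above that level on all arrays, Ms4a4c and Ms4a6c with medium and IL-21, and Ms4a6d through its IL-21 array alone. The median intensity was 191 in medium, 182 in IL-21 and 188 in IL-6 with TGFb1. In 474 genes that had 2 bright probe sets, these differed by a median of 0.07 in both comparisons with medium, and the 95th percentile of this gap was 0.41 for IL-21 and 0.37 for the IL-6 and TGFb1 culture. Such gaps measure probe set error on a given pair of arrays, and the variation from culture to culture is not part of them. Intensities of different genes come from different probes, so their heights were not set against each other.

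The labelled cell type was checked against marker genes. All 11 T cell markers with a probe set were above the brightness filter on every array, and their summed intensity lay between 47955 and 48773. Cd3e, a chain of the T cell receptor complex, was within 0.05 of medium in both treated cultures, and Cd4 within 0.17. From medium, the differences of the 11 ran from -0.84 to 0.41 with IL-21 and from -2.07 to 0.51 with IL-6 and TGFb1. Trat1, an adaptor of the T cell receptor, was lowest and Cd28 highest in both. Trat1 was the only one at least 2-fold from medium, and only with IL-6 and TGFb1. Of the markers of other cells, 10 of 14 for B cells, 17 of 19 for myeloid cells, 7 of 8 for dendritic cells, all 5 for NK cells and all 6 for mast cells were below the filter on every array. Tyrobp is counted for both myeloid and NK cells. Among all 19935 genes, 11003 reached the filter on at least 1 array. Of the CD8 T cell markers, Cd8a was below it and Cd8b1 was at 810, 731 and 616 with medium, IL-21 and IL-6 with TGFb1. None of these markers was listed at 0, since the lowest intensity in the file was 25.5. Whether a lower signal in a culture reflects fewer cells of a type or less RNA per cell cannot be told apart in such bulk samples.

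The stretches just before the transcription starts of Ms4a4b and Ms4a4c are shown because these genes had nearly the same values across the 3 cultures. RefSeq sequences of GRCm38.p6 were used. This is not the mm8 build of the submitters' processing notes, and the deposited values carry no coordinates. The windows hold the 250 bases before each start on the plus strand of chromosome 19, chr19:11443308-11443557 for Ms4a4b and chr19:11407411-11407660 for Ms4a4c. Capitals mark bases that are identical in the local alignment of the pair.
Ms4a4b: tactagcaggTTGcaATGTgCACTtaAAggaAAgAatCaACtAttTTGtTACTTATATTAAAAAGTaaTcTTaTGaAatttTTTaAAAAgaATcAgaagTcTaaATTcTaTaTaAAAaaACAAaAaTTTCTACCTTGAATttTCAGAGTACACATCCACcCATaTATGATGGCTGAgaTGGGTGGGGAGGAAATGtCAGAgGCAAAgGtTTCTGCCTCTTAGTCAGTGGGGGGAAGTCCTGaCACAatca
Ms4a4c: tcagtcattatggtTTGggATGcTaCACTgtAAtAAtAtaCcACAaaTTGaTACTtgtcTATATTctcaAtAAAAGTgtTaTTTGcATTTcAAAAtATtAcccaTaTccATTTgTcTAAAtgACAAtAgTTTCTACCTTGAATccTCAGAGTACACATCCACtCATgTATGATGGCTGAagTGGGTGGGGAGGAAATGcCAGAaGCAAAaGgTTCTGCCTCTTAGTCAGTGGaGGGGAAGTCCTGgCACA
The alignment covered 247 columns, of which 181 were identical (73.3%), 44 were mismatches and 22 were gaps. The likeness was highest next to the start: in the last 100 columns 90% were identical, against 61.9% in the 147 columns before them. The longest unbroken identical run was 20 bases.

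The windows of Ms4a6b and Ms4a6c are also shown, because their upstream sequences are alike as well. The values of these genes across the cultures were not the same, and a link between upstream sequence and values was not tested. The windows are chr19:11518309-11518558 for Ms4a6b and chr19:11469118-11469367 for Ms4a6c, both on the plus strand. Capitals mark the bases identical between them.
Ms4a6b: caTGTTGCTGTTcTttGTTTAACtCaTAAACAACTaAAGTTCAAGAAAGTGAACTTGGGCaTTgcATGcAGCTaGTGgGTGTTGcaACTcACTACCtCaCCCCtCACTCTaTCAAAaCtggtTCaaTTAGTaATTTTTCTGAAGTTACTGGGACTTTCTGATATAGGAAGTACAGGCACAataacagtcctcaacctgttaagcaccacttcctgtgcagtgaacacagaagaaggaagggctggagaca
Ms4a6c: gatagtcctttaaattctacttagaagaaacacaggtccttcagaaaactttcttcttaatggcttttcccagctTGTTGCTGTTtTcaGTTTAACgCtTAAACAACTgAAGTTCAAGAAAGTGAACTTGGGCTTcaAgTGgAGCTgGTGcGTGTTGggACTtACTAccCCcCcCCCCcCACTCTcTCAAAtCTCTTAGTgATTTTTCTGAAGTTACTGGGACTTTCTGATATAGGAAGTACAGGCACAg
This alignment covered 181 columns with 151 identical (83.4%) and a longest identical run of 48 bases. The alike part ends 71 bases before the start of Ms4a6b and 2 bases before that of Ms4a6c. No other pair among the 5 Ms4a genes with a window in the table (also Ms4a4d) aligned over more than 37 columns.

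Letters of transcription factor motifs were searched on both strands of these windows. The STAT motif TTCNNNGAA, found in 7.02% of the 32851 windows of this length in the table, was in none of the 5. The SMAD motif CAGAC, found in 42.2% of all windows, occurred in the window of Ms4a4d and in none of the other 4. The ETS motif AGGAAGT, found in 7.69% of all windows, was found in Ms4a6b 86 and 43 bases before the start, the latter on the other strand, and in Ms4a6c 17 bases before it. The RUNX motif TGTGGT (14% of windows) was found in Ms4a4c, 211 bases before its start and on the other strand. The AP-1 motif TGANTCA (6.75%) and the GATA motif AGATAA (9.99%) were in none of the 5 windows. These are matches of letters within a short window. They do not show whether a factor binds.

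How the Ms4a genes stand in the culture with IL-6 and TGFb1 was read from its array against the medium array. Ms4a4b, the T cell member described with GITR, had an intensity of 2028 in medium, 1832 in IL-21 and 565 in IL-6 with TGFb1. Its signal with IL-6 and TGFb1 was thus 27.9% of that with medium, a log2 difference of -1.84, while with IL-21 it was 90.3% (-0.15). The medium and IL-21 arrays were close to each other and the IL-6 and TGFb1 array stood apart on the lower side.

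Ms4a4c, which has been described in T cells and in myeloid cells, had an intensity of 487 in medium, 437 in IL-21 and 130 in IL-6 with TGFb1. The last value is below the brightness filter, and the difference of -1.90 was -1.51 when 64 was added to each intensity in place of 1. Among the 11003 compared genes Ms4a4c had the 10th and Ms4a4b the 12th lowest difference from medium. The 2 genes were the only ones of the 5 compared Ms4a genes at least 2-fold lower, against 0.364% of all compared genes on the lower side and 1.04% in either direction. No Ms4a gene was 2-fold higher. That these genes stand far from medium was known when the family was chosen, so the counts are a description.

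The pair had nearly equal differences. The value of Ms4a4b minus that of Ms4a4c was 0.01 for IL-21 and 0.06 for the IL-6 and TGFb1 culture, within the median gap of 0.07 between probe sets of the same gene. The probe sequences were not used here, so whether probes of one gene also detect the transcript of the other, a related sequence, was not tested. On the same arrays the summed intensity of the T cell markers was 48114 in medium, 48773 in IL-21 and 47955 in IL-6 with TGFb1. Among these markers Trat1 went from 2803 in medium to 665 in IL-6 with TGFb1 (-2.07). Over the same arrays Cd28 went from 3945 to 5630 (0.51) and Cd5 from 4926 to 6673 (0.44). The nearly equal sums thus hold changes in both directions. The CD8 T cell marker Cd8b1 had a difference of -0.39 there. The part of the cell makeup in the result was not tested.

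**Figure D1:**
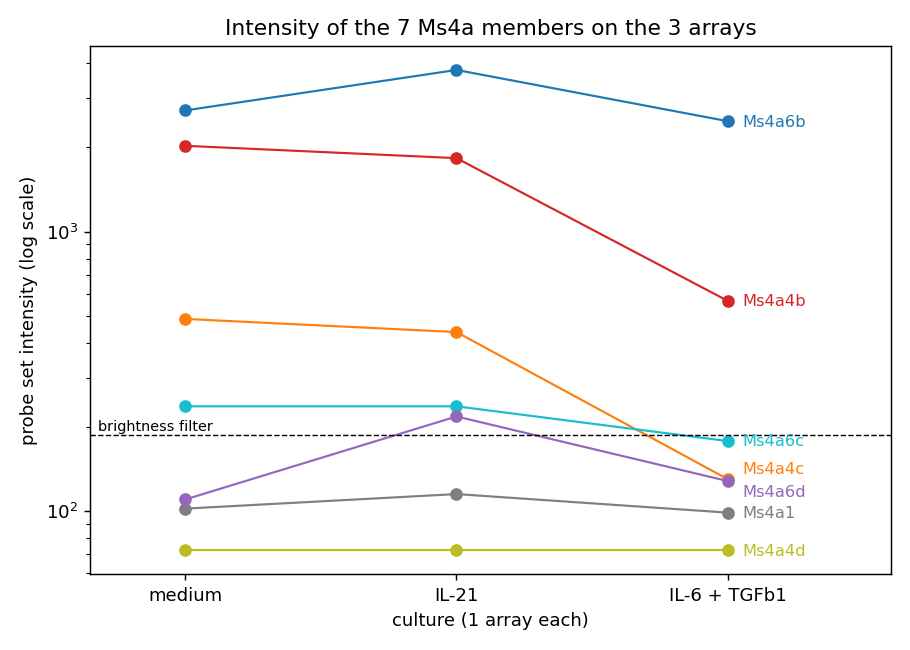
Probe set intensity (log axis) of the 7 Ms4a genes on the array of each culture, with 1 point per array; the dashed line is the brightness filter at 187, and heights of different genes are not comparable. Ms4a4b goes from 2028 with medium to 565 with IL-6 and TGFb1 and Ms4a4c from 487 to 130, while Ms4a6b stays between 2484 and 3789.

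Ms4a6b, another member with a bright signal in these T cells, had an intensity of 2714 in medium, 3789 in IL-21 and 2484 in IL-6 with TGFb1. Its highest value was with IL-21, a difference of 0.48 from medium that was the 367th highest of the compared genes. With IL-6 and TGFb1 the difference was -0.13. Its IL-21 difference lay above the 95th percentile of probe set gaps (0.41), and its IL-6 and TGFb1 difference lay within it. In that comparison Ms4a6b differed from Ms4a4b by 1.71 log2 units.

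Ms4a6c, a gene known from monocytes and macrophages, had an intensity of 237 in medium, exactly the same deposited value in IL-21, and 178 in IL-6 with TGFb1. The difference of -0.41 on the last array, where the signal was just under the brightness filter, was the 197th lowest. Exact ties are common in this file, where 10.1% of probe sets had 1 value on all 3 arrays.

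Ms4a6d, a macrophage gene, had an intensity of 110 in medium, 218 in IL-21 and 128 in IL-6 with TGFb1. Only the IL-21 value was above the brightness filter. The difference of 0.99 with IL-21, the 56th highest, fell just short of 2-fold. It was past 2-fold with quantile normalization (1.04) and with each array centred on its median (1.05), and it was 0.70 when 64 was added. With IL-6 and TGFb1 its difference was 0.23. Of the 21 listed myeloid markers 19 had a probe set, and their summed intensity was 3396 in medium, 3240 in IL-21 and 3376 in IL-6 with TGFb1. Among them Csf1r, the receptor of the macrophage growth factor, was at 103, 101 and 103, and Lyz2, which encodes lysozyme, at 124, 140 and 123. The largest term of the sum was Ctss, a protease gene, at 1352, 1186 and 1300, and 17 of the 19 markers were below the filter on every array. The part of myeloid cells in the signal of Ms4a6d was not tested.

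Ms4a1, the CD20 gene of B cells, had an intensity of 102 in medium, 115 in IL-21 and 98.7 in IL-6 with TGFb1, below the brightness filter on each array. The B cell marker Cd79a, a chain of the B cell receptor, was at 94.5, 95 and 95, also below the filter. The summed intensity of the 14 B cell markers was 2540 in medium, 2632 in IL-21 and 2809 in IL-6 with TGFb1. Of the 4 B cell markers that passed the filter, Cd79b was at 365, 371 and 380 and Cd72 at 529, 480 and 531. Bank1 went from 213 with medium to 134 with IL-6 and TGFb1. Pou2af1, a transcriptional coactivator that T cells can also express, went from 371 with medium to 712 with IL-6 and TGFb1. Ms4a4d was at 72.4 on all 3 arrays, with exactly equal deposited values, under the 25th percentile of each array. The differences of the dim genes Ms4a1 and Ms4a4d carry little information.

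In IL-21 minus medium, none of the 5 compared Ms4a genes was at least 2-fold apart, against 0.591% of all compared genes. Above medium were 2, below it 2, and 1 was exactly equal, with a median of 0.00 against 0.04 over all compared genes. One of those above medium was Ms4a6d, which passed the brightness filter only through its IL-21 array and so had to lie above medium. In IL-6 with TGFb1 minus medium, 4 of the 5 were below 0 and 1 above, with a median of -0.41 against 0.02. This median follows the filter: it was -0.13 over all 7 genes, and -0.98 with the filter at the 75th percentile of all values, which left Ms4a4b and Ms4a6b. Of the 4 genes below 0, Ms4a4c and Ms4a6c passed the brightness filter with medium and IL-21 only. These genes therefore had to lie below medium on the IL-6 and TGFb1 array. The share of all compared genes above medium was 59.8% for IL-21 and 56.3% for the IL-6 and TGFb1 culture. Both comparisons subtract the same medium array.

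**Figure D2:**
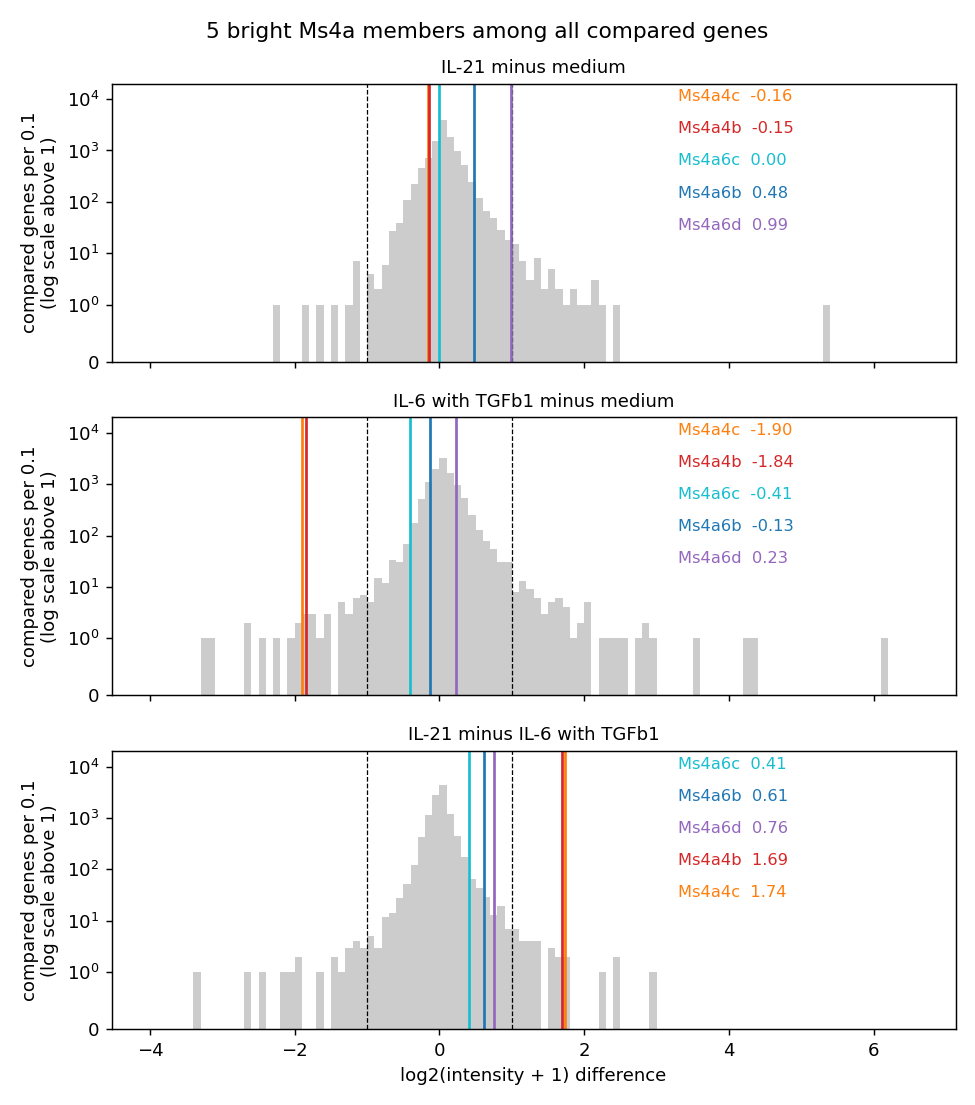
Differences of the 5 compared Ms4a genes (coloured lines, values at the right) on the histogram of all 11003 compared genes for each comparison; the x axis is the log2(intensity + 1) difference, the y axis the number of genes per bin on a log scale above 1, and dashed lines mark 2-fold. Ms4a4b and Ms4a4c lie at -1.84 and -1.90 in the far lower part of IL-6 with TGFb1 minus medium and near 0 with IL-21.

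The direct comparison of IL-21 with IL-6 and TGFb1 does not use the medium array. All 5 compared Ms4a genes were higher with IL-21, where 44.7% of all compared genes were above 0 and 13% were exactly equal. Ms4a4c (1.74) and Ms4a4b (1.69) had the 6th and 7th highest differences of all compared genes, and they were the 2 Ms4a genes past 2-fold. The background was 0.273% of compared genes on the higher side and 0.464% in either direction. Ms4a6d followed at 0.76, the 62nd highest, then Ms4a6b at 0.61, the 96th, and Ms4a6c at 0.41, the 198th. The median of the 5 was 0.76 against 0.00 over all compared genes. Ms4a6d entered the comparison only through its IL-21 value. Ms4a4c and Ms4a6c entered through medium and IL-21, with values under the filter in IL-6 with TGFb1. The directions of Ms4a6d, Ms4a4c and Ms4a6c here are therefore not independent of the filter. One treated culture held IL-21 and the other held IL-6 plus TGFb1, so the part of each cytokine cannot be told apart.

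The Ms4a genes lie together on mouse chromosome 19. In the order of the RefSeq table the block holds 32 genes, 21 of them named Ms4a, and Ms4a4c and Ms4a4b are neighbours with a single pseudogene between them. Ms4a6c follows directly after Ms4a4b. The difference of Ms4a6c with IL-6 and TGFb1 was -0.41, where that of Ms4a4b next to it was -1.84 and that of Ms4a4c was -1.90. The 10 nearest compared protein-coding genes outside the block, 5 on each side, lay between -0.31 and 0.28 with IL-6 and TGFb1 and between -0.20 and 0.23 with IL-21. AW112010, a long noncoding RNA gene inside the block, had intensities of 2946, 4230 and 2852 with medium, IL-21 and IL-6 with TGFb1. Its differences of 0.52 and -0.05 were close to those of Ms4a6b. Genes outside the block were also close to Ms4a6b, such as Cd84 (0.47 and -0.11) and Rybp (0.44 and -0.09). AW112010, Cd84 and Rybp were named after their values were seen.

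**Figure D3:**
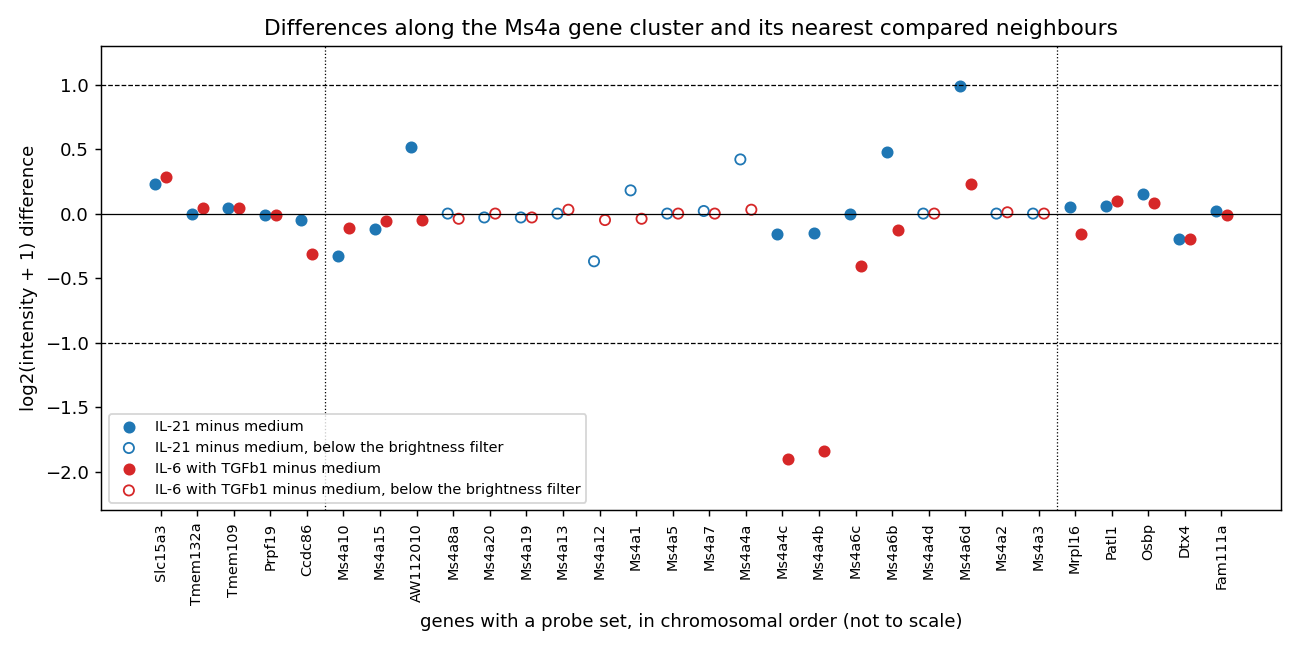
Differences from medium for the IL-21 culture (blue) and the IL-6 and TGFb1 culture (red) for every gene of the Ms4a block with a probe set, in chromosomal order and not to scale, between the 5 nearest compared protein-coding genes on each side (outside the dotted lines); open circles are genes below the brightness filter and dashed lines mark 2-fold. Only Ms4a4c (-1.90) and Ms4a4b (-1.84) among these genes pass the lower line, and Ms4a6d (0.99) reaches just under the upper one.

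Other genes of the wider family were taken from a list of 15, of which 12 had a probe set and 4 were compared. None of the 4 was 2-fold apart in any comparison. Tmem176b, a distant relative of the Ms4a proteins, had an intensity of 174 in medium, 205 in IL-21 and 276 in IL-6 with TGFb1. Its neighbour Tmem176a had 135, 138 and 206. Tmem176a passed the brightness filter only through its last value, and Tmem176b passed it in both treated cultures but not with medium. With IL-6 and TGFb1 the 2 genes therefore had to lie above medium. Both genes were highest there, with differences of 0.66 for Tmem176b and 0.61 for Tmem176a, where Ms4a4b and Ms4a4c were lowest. Ms4a10 (-0.33 for IL-21 and -0.11 for the other treated culture) and Ms4a15 (-0.12 and -0.06) were nearer to medium. Of the dim family genes, Ms4a2 of mast cells was between 39.6 and 39.9 and Ms4a3, a gene of early myeloid cells, was at 68.7 on all arrays. Ms4a4a was at 61.6, 82.7 and 62.8. Ms4a19 and Ms4a20, which were not on the list and were added after their values were seen, lay between 31.1 and 31.8.

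Genes of proteins linked to Ms4a function were read from a list of 13. Bcr was left out after the values were seen, since it encodes a GTPase regulator and not the B cell receptor. Of the other 12, 11 had a probe set and 8 were compared. None was 2-fold apart, and their median was 0.10 in the IL-21 culture and 0.03 in that with IL-6 and TGFb1, or 0.07 and 0.00 with Bcr. Tnfrsf18, which encodes GITR, the partner of MS4A4B, had intensities of 4516, 4726 and 4415 with medium, IL-21 and IL-6 with TGFb1, differences of 0.07 and -0.03. Orai1, a pore subunit of the store-operated calcium channel, was at 590, 645 and 559. The calcium sensor Stim1 was at 656, 818 and 780, differences of 0.32 and 0.25. Over these 8 genes the differences with IL-6 and TGFb1 lay between -0.08 and 0.26.

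The genes with patterns nearest to Ms4a4b were found by the Euclidean distance between log2 values centred on each gene's mean over the 3 arrays. With only 3 arrays many genes can come close, so this is a description. Genes with Gm-number, LOC, Rik, Mir, Snor, Olfr or Vmn symbols were left out of this search. Among the compared genes that remained, Ms4a4c was the nearest, at a distance of 0.04. It was followed by Penk, the enkephalin precursor (0.22), Itih5 (0.35), Dapl1 (0.40) and Serpinb6b, a protease inhibitor (0.46). For Ms4a4c the nearest were Ms4a4b (0.04), Penk (0.26), Dapl1 (0.39), Itih5 (0.39) and Nrp1, a co-receptor for semaphorins (0.49). The nearest of the remaining genes outside the family was therefore at least 0.22 away. Penk had intensities of 632, 619 and 217 with medium, IL-21 and IL-6 with TGFb1. For Dapl1, whose values were 4139, 2551 and 876, the IL-21 array was also lower than medium (-0.70), unlike the Ms4a pair.

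**Figure D4:**
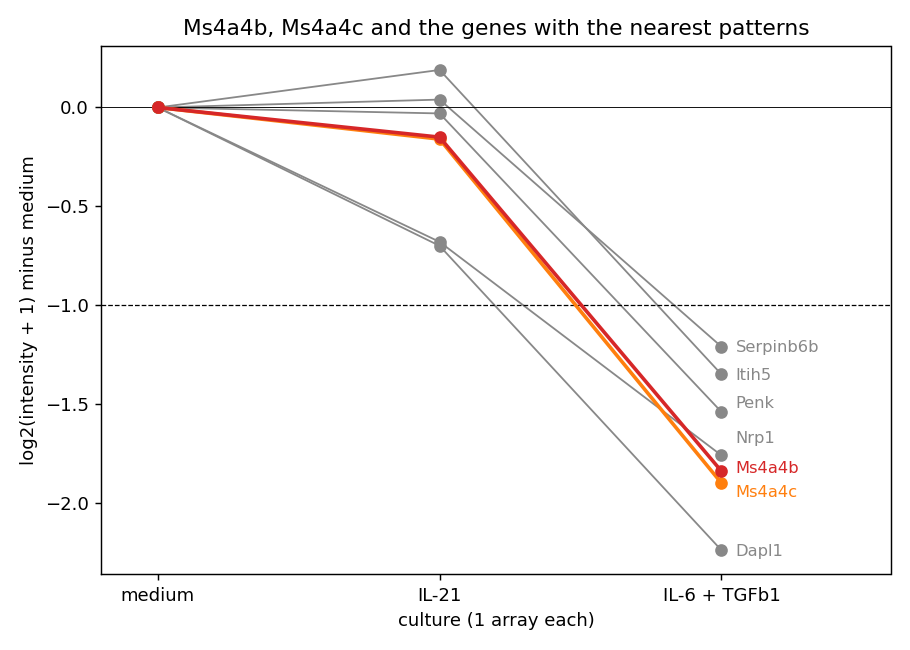
Log2(intensity + 1) minus medium for Ms4a4b, Ms4a4c (coloured) and the genes with the nearest patterns (grey), with 1 point per array; the dashed line marks 2-fold lower. Ms4a4b and Ms4a4c overlie each other, at -0.15 and -0.16 with IL-21 and at -1.84 and -1.90 with IL-6 and TGFb1, and Penk ends at -1.54.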

How the data were processed

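RNA of 3 cultures of naive CD4+ T cells was labelled with biotin using an Affymetrix whole-transcript kit and hybridized by a service company, per the labels' protocols, and the build was mm8, per the submitters' processing notes. The deposited values are probe set intensities on a linear scale (25.5 to 20652), read as such from the values. The sources used here do not name the authors' method of summary and normalization. The number of arrays limits the precision.

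Of 28815 probe sets, 21780 had 1 gene symbol in the platform annotation, 1605 several and 5430 none listed. By Entrez identifier 21689 matched a RefSeq gene (GRCm38.p6, used for names, neighbours and upstream sequences). The probe set with the highest mean stood for a gene. Differences of log2(intensity + 1) were computed in Python 3.11.15 with pandas 2.3.3, and checked on simulated data. A difference of at least 1 in size counted as 2-fold. Upstream windows were found for 5 of the 7 genes, not for Ms4a1 and Ms4a6d, and aligned locally with Biopython 1.88 (match 1, mismatch -1, gap opening -2, extension -1). The Ms4a genes and the lists of family genes, partners and markers were chosen with earlier results of these data known. The named genes were the 7 genes, genes of these lists and the 5 nearest patterns of Ms4a4b and of Ms4a4c. AW112010, Cd84, Rybp, Ms4a19 and Ms4a20 were added after their values were seen. Alternatives changed the scaling, the pseudocount, the floor, the filter, the probe set and the fold.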

Additional observations from a re-analysis of the deposited data

How the results depend on the processing

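Of the 9 alternatives for single genes, 5 (floor, both filters and both choices of probe set) left every value of the 7 genes as it was, since each gene has 1 probe set and no value lay below the floor of 69. Under the other 4 (both scalings and both pseudocounts) Ms4a4b and Ms4a4c kept their direction, from -1.89 to -1.73 and from -1.97 to -1.51 in IL-6 with TGFb1 minus medium, and no 2-fold difference reversed. Of 84 values under these 4, 19 moved by more than the median probe set gap or across 2-fold. In IL-21 minus medium the count of Ms4a genes at least 2-fold apart was 0. It was 1 (Ms4a6d) with quantile normalization, where 0.555% of all compared genes passed, and with arrays centred on their median, where 0.727% passed. The count was also 1 (Ms4a6d) at a threshold of 1.5-fold, which 2.54% of all compared genes passed. In IL-21 minus IL-6 with TGFb1 that threshold gave 4 in place of 2, where 1.45% of all compared genes passed it. With the brightness filter at the 75th percentile of all values (785) only Ms4a4b and Ms4a6b were compared. The count was then 1 in both comparisons with the IL-6 and TGFb1 array. Of all genes compared at this filter, 1.23% passed 2-fold in IL-6 with TGFb1 minus medium and 0.552% in IL-21 minus IL-6 with TGFb1. The medians of the Ms4a genes were 0.17 for IL-21 minus medium, -0.98 for IL-6 with TGFb1 minus medium and 1.15 between the treated cultures. With no filter the last 2 medians were -0.13 and 0.61. With log2(value + 64) they were -0.31 and 0.60, and with log2(value + 16) the median between the treated cultures was 0.70. No paired analysis was possible because each group has 1 array. With 1 array per culture no replicate could be left out, and the spread between cultures is unknown.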
